A study of Mus musculus with 16 samples.

Results

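The genes described here carry glucose through the heart muscle cell, and they cover glucose and lactate transport, the steps of glycolysis and the making and breaking of glycogen. They are a list of 34 symbols among the 54108 gene symbols of the count table, drawn up by pathway role. The rule sets no threshold on measured values, but the list was written with earlier results of these data known. Of the 34 genes, 33 passed the filter on low counts and were tested within a fit of 16051 genes. The gene that did not pass was Aldoc, an aldolase isoenzyme best known from brain.

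Ventricular RNA was compared between mice lacking the RNA-binding protein Rbpms in heart muscle and mice that kept it. The conditional knockout group (cKO) carried a Myh6-Cre transgene on a Rbpms fl/fl background, and the control group was Rbpms fl/fl without a listed Cre. Both groups were 8 weeks old, with 4 libraries each, and the labels mark replicate 3 of each group as female and the rest as male. The Myh6 promoter drives Cre in cardiomyocytes, so other cells of the ventricle should keep Rbpms, and the controls do not show what Cre alone does. Newborn libraries of both genotypes were not analysed here.

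Glucose enters cardiomyocytes through GLUT1 (Slc2a1) and the insulin-responsive GLUT4 (Slc2a4), is phosphorylated by hexokinase, and is then either stored as glycogen or split to pyruvate. The adult heart draws most of its ATP from fatty acids, and glucose and lactate supply much of the rest. Many of the enzymes exist as isoenzymes from separate genes, with one form that prevails in striated muscle, such as Pfkm, Eno3, Pgam2 and Pygm.

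Before the results, 3 facts of the libraries bear on them. Rbpms itself had 38.8, 34.5, 27.1 and 26.9 CPM (counts scaled to a common library size, here by TMM) in cKO, against 190.5, 153.5, 193.2 and 101.6 in control, a 5.02-fold lower level (log2 fold change -2.33 ± 0.20 SE, edgeR adjusted p = 3.54e-05). Control replicate 4 stood apart in markers of skeletal muscle. Myh4, a fast skeletal myosin, had at most 0.308 CPM in cKO, against 58.2 CPM in control replicate 4 and 0 in the other controls, and the fast myosins Myh1 and Myh2 had at most 0.277 CPM in cKO, against 11.2 and 8.52 CPM in control replicate 4. The summed level of 15 skeletal muscle markers was 382 to 506 CPM in cKO, against 337.8 in control replicate 4 and 110.6 to 130.8 in the other controls. Of the 10 tested, 2 rose (20%), beside 9.64% of all tested genes called higher, and 8 were not called. The 2 that rose weigh heavily in the cKO sum. Casq1 averaged 163.3 CPM in cKO and 44.4 CPM in control, and Mybpc2 185.8 CPM in cKO and 30.6 CPM in control. Of the uncalled markers, Mylpf, Tnnt3 and Atp2a1 were higher in every cKO library than in every control except replicate 4, which was higher still. Mylpf, for example, had 2.62 to 7.32 CPM in cKO, against 9.51 in control replicate 4 and at most 1.81 in the other controls. Myl1, Tnni2, Actn3, Neb and Mybpc1 overlapped with the other controls as well. The 8 fibroblast markers all rose, beside 9.64% of all tested genes called higher, with a summed level of 3420 to 4570 CPM in cKO against 1410 to 2040 CPM in control. Of 8 cardiomyocyte markers none rose and 2 fell (25%), with a summed level of 29200 to 34800 CPM in cKO against 34700 to 45400 CPM in control. That share is near the 22.4% called lower among all tested genes with a mean of at least 100 CPM, a level all 8 markers exceed. Yet all 8 markers had log2 fold changes below 0, with a median of -0.23, against -0.07 over all tested genes at that level. In bulk tissue, fewer cells of a type and less RNA per cell cannot be told apart. The part of these marker differences in the results below was not tested. Values without control replicate 4 are therefore given for each of the 12 called genes among the 34. They are also given for the 33 tested genes as a set and for 11 genes of a longer list.

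Promoter sequences are shown for 5 genes, from RefSeq on GRCm38.p6, each running 250 bases before to 50 bases after the annotated start and written 5′ to 3′ on the gene's own strand. Capitals mark letters that match one of 6 short motifs or its reverse complement. They are the E-box CACGTG, the ACGTG within it, the GC box GGGCGG, the CCAAT box, the TATA box TATAAA and the E-box CAGCTG. Pfkl and Pfkp are shown because these phosphofructokinase genes changed in opposite directions. Slc16a1 and Ppp1r3c are shown because they rose and both hold CACGTG. Eno3 is shown because its level per kilobase, with all annotated exons as the length, was the highest of the 34 genes. Their positions are chr10:78009758-78010057 for Pfkl (minus strand), chr13:6648722-6649021 for Pfkp (minus strand), chr3:104638414-104638713 for Slc16a1 (plus strand), chr19:36736555-36736854 for Ppp1r3c (minus strand) and chr11:70656926-70657225 for Eno3 (plus strand).
Pfkl: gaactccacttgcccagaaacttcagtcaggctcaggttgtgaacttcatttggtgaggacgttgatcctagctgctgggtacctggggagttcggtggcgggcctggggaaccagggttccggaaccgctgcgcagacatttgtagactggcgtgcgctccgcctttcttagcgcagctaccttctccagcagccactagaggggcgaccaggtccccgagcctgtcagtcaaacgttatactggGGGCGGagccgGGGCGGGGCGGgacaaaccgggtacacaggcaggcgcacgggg
Pfkp: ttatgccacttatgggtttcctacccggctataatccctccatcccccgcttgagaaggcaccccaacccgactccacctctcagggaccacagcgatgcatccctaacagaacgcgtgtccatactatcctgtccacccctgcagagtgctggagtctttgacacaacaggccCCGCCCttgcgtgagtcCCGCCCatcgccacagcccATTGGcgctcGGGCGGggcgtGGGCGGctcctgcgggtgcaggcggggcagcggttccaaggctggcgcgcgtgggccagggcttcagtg
Slc16a1: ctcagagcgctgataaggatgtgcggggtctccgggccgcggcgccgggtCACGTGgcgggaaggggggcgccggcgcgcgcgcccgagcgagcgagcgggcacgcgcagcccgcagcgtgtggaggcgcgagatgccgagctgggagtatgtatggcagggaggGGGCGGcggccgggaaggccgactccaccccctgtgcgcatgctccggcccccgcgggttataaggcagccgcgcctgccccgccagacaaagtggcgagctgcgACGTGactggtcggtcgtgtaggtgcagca
Ppp1r3c: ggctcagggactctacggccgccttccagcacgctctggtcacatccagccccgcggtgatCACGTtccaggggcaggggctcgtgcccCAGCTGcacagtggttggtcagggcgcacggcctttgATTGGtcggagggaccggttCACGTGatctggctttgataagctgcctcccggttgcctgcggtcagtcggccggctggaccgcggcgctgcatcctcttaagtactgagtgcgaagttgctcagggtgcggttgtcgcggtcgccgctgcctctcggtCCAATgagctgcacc
Eno3: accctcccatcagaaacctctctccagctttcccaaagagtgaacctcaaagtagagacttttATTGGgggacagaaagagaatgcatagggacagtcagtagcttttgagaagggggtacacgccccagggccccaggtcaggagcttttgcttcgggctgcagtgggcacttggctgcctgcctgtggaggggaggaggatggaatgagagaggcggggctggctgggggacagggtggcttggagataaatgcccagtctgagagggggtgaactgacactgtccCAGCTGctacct

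The table of promoters held 50 entries for 33 of the 34 genes; Slc2a4 had no entry. CACGTG was in 6 of the 50, from the genes Gyg, Ldha, Pfkfb2, Pfkm, Ppp1r3c and Slc16a1, and in 7.15% of all 32817 mouse promoters. Of these genes, Gyg, Ldha, Pfkfb2 and Pfkm were not called, with log2 fold changes of -0.07, -0.21, -0.07 and -0.28. ACGTG, which includes every CACGTG, was in 22 of the 50 and in 19.6% of all promoters. GGGCGG was in 25 of the 50 (35.6% of all promoters), CCAAT in 21 (37.4%), CAGCTG in 13 (16.3%) and TATAAA in 3 (13.6%). Some genes have several entries, and some of these overlap. Counted by gene, of 33, ACGTG was in 19, GGGCGG in 22, CCAAT in 17, CAGCTG in 13 and TATAAA in 3. Pfkl and Pfkp hold 3 and 4 copies of GGGCGG, and neither holds CACGTG. These matches are letters in a window, not measured binding.

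Scaled to exon length, the transcripts of muscle and heart isoenzymes were the most abundant. The length, here and in the shares below, is that of all annotated exons of a gene joined together. It exceeds the longest single transcript by unlike amounts, at 1739 against 1564 bases for Eno3 and 2911 against 1549 bases for Aldoa. The order of the top genes therefore depends on the length used. Eno3, the muscle enolase, led in both groups with 490 ± 53.9 CPM per kilobase in cKO and 761 ± 78.5 in control (SD, n = 4 each). Ldhb, the heart-type lactate dehydrogenase subunit, came next with 470 ± 34.9 CPM per kilobase in cKO and 686 ± 70.4 in control. Aldoa, Pygm, Pfkm and Pgam2 followed in both groups, at 401, 353, 350 and 327 CPM per kilobase in cKO and 507, 441, 423 and 398 in control, and in control each of these 4 differed from its neighbour by no more than the neighbours' SDs added together. At the other end stood Slc2a1 (3.04 CPM per kilobase in cKO and 4.14 in control), Pfkfb1 (1.08 in cKO and 5.05 in control), the lactate carrier Slc16a3 (0.588 in cKO and 0.466 in control) and Aldoc (0.0903 in cKO and 0.0707 in control, from 48 reads over all libraries). Pfkl moved farthest in this order, with rank 29 in cKO and 23 in control. Phka1 stood at rank 23 in cKO and 27 in control, Ppp1r3c at rank 16 in cKO and 19 in control, and Slc16a1 at rank 11 in cKO and 13 in control.

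**Figure D1:**
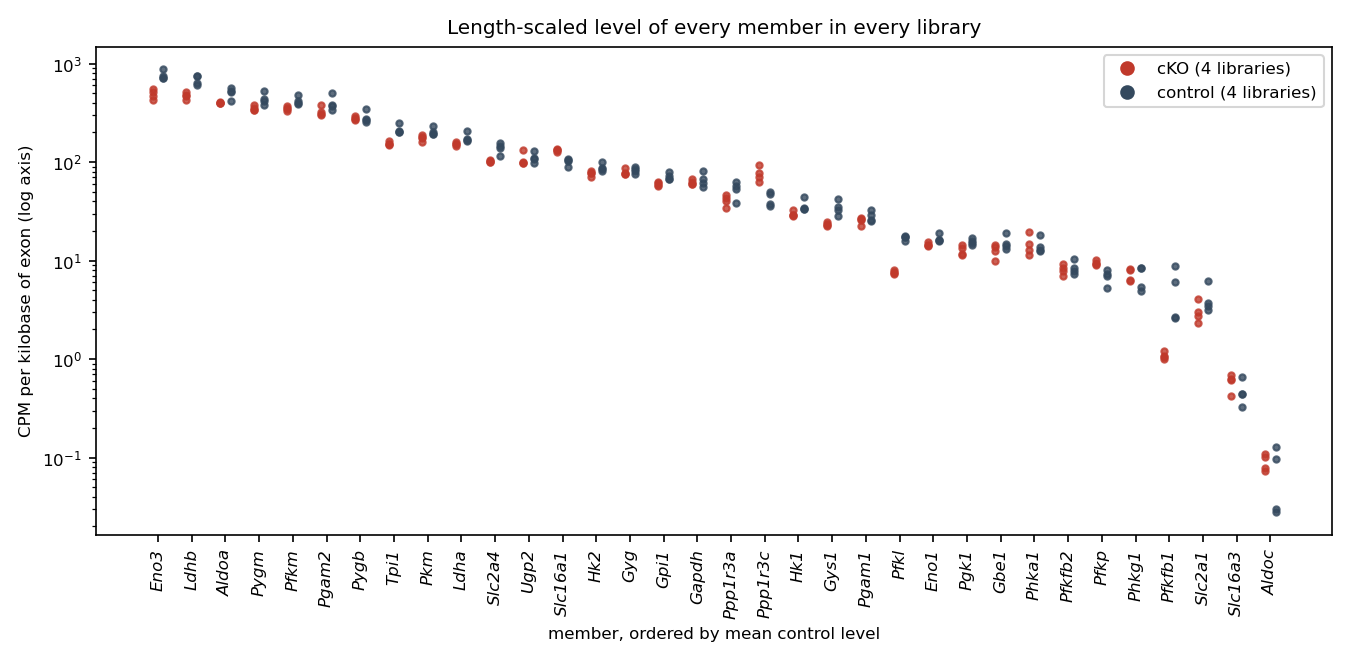
Length-scaled level of each of the 34 genes (CPM per kilobase of exon, log axis) in each library, cKO in red left of control in dark grey, ordered by the mean control level. Levels run from 0.0707 for Aldoc to 761 for Eno3, both control means, and the red points of Pfkl and Pfkfb1 lie below their dark points while those of Ppp1r3c and Slc16a1 lie above.

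Of the 33 tested genes, 9 fell and 3 rose in cKO, and 21 were not called. The 9 that fell, or 27.3%, were Slc2a4, Gpi1, Pfkl, Aldoa, Tpi1, Pfkfb1, Eno3, Ldhb and Gys1, beside 9.64% of all tested genes called lower. The 3 that rose, or 9.09%, were Pfkp, Slc16a1 and Ppp1r3c, beside 9.64% of all tested genes called higher. The median log2 fold change was -0.26 over the 33 genes, against 0.005 over all tested genes. Of the 33 values 27 were below 0, as were 49.4% of all. The 8 cardiomyocyte markers had a median of -0.23, and all 8 were below 0. Whether these shifts are related was not tested. Without control replicate 4 the median of the 33 genes was -0.17, against 0 over all tested genes, and 27 values were below 0. In that fit 7 of the 33 genes were called lower and 3 higher, beside 1418 and 1401 of all 16415 tested genes.

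The background depends on the level of expression. Among the 1910 tested genes with a mean of at least 100 CPM, 22.4% were called lower and 9.84% higher, with a median of -0.07. Of the 22 glucose and glycogen genes at that level, 7 fell (31.8%) and 3 rose (13.6%), with a median of -0.27. The groups of CPM values did not overlap for 17 of the 33 genes, 14 lower and 3 higher in cKO, beside 23.5% of all tested genes in either direction. At a mean of at least 100 CPM they did not overlap for 14 of the 22 genes, 11 lower and 3 higher. Of all 1910 tested genes at that level, 722 did not overlap, 504 lower and 218 higher. Scaling matters to the split over all genes, with 1548 higher and 1547 lower under TMM scaling but 1992 and 1021 when only total counts were used. Under that scaling 8 of the 33 genes fell, 3 rose and 22 values were below 0. Together the 34 genes took 1.27% to 1.3% of all counts in cKO libraries and 1.39% to 1.54% in control libraries, ranges that do not overlap.

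**Figure D2:**
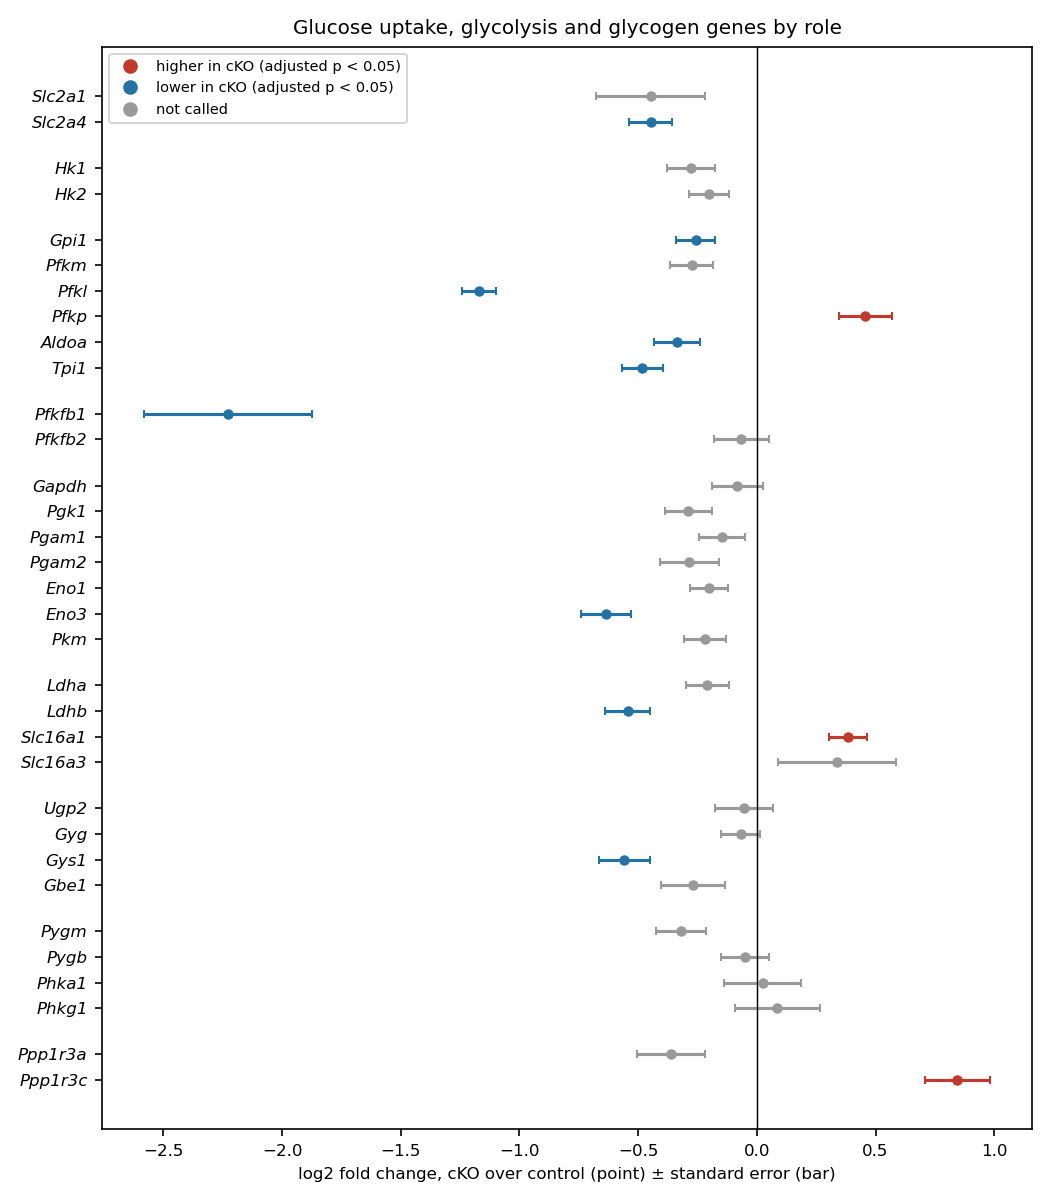
Log2 fold change, cKO over control, with its standard error for the 33 tested genes, in blocks by role from glucose transport at the top to glycogen phosphatase targeting at the bottom. Blue points fell, red points rose and grey points were not called; Pfkfb1 (-2.23) and Pfkl (-1.17) lie farthest left and Ppp1r3c (0.84) farthest right.

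Among the transporters that bring glucose in, GLUT4 fell. Slc2a4 (chr11:69942539-69948188, GRCm38) had 366.2, 352.8, 348.9 and 348.9 CPM in cKO, against 483.5, 404.3, 502.7 and 540.5 CPM in control. All cKO libraries lay below all controls, and the cKO libraries were close to each other. The difference was 1.36-fold (log2 fold change -0.45 ± 0.09 SE, edgeR adjusted p = 0.00515), and -0.39 without control replicate 4 (edgeR adjusted p = 0.0123). Slc2a1, the basal glucose transporter, had 10.6, 9.49, 14.4 and 8.17 CPM in cKO, against 12.2, 10.9, 22.0 and 12.9 CPM in control. The highest library of each group was the female one, and the groups overlapped. Its log2 fold change had the same size as that of Slc2a4, -0.45, but a larger error (± 0.23 SE, edgeR adjusted p = 0.209).

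Hexokinase traps glucose as glucose 6-phosphate, and neither of its main cardiac genes was called. Hk1, the more widely expressed form, had 248.9, 248.2, 277.7 and 242.2 CPM in cKO, against 290.9, 284.5, 282.4 and 375.9 CPM in control. The groups did not overlap, with control replicate 4 the highest, and the log2 fold change was -0.28 ± 0.10 (SE, edgeR adjusted p = 0.0786). Hk2, the insulin-sensitive muscle form, averaged 456.4 ± 24.9 CPM in cKO and 525.4 ± 47.7 CPM in control (SD, n = 4 each), with overlapping groups and a log2 fold change of -0.20 ± 0.08 (SE, edgeR adjusted p = 0.121).

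The largest contrasts among glycolytic enzymes were in phosphofructokinase, which commits sugar phosphate to glycolysis and is assembled from subunits of 3 genes. Pfkl, the liver-type subunit (chr10:77986947-78010083), had 53.0, 48.5, 51.2 and 50.2 CPM in cKO, against 116.7, 104.8, 118.7 and 116.9 CPM in control. Every control library was far above every cKO library. Pfkl fell 2.25-fold (log2 fold change -1.17 ± 0.07 SE, edgeR adjusted p = 1.21e-05), and by 1.16 on the log2 scale without control replicate 4. Pfkp, the platelet-type subunit (chr13:6579768-6648777), went the other way. It had 134.6, 124.8, 121.0 and 126.4 CPM in cKO, against 94.3, 106.4, 70.9 and 97.9 CPM in control, with no overlap and with the female control the lowest. Pfkp rose 1.37-fold (log2 fold change 0.46 ± 0.11 SE, edgeR adjusted p = 0.0135), and 0.48 on the log2 scale without control replicate 4 (edgeR adjusted p = 0.0215). Its exons share 748 bases with Pitrm1 on the other strand, which averaged 71.6 CPM in cKO and 79.1 CPM in control and was not called.

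The muscle subunit Pfkm made up nearly all phosphofructokinase transcripts. It had 1157, 1252, 1089 and 1177 CPM in cKO, against 1393, 1341, 1307 and 1617 CPM in control. The groups did not overlap but the gene was not called (log2 fold change -0.28 ± 0.09 SE, edgeR adjusted p = 0.053). By length-scaled counts Pfkm was 95.3% ± 0.32 of the 3 subunits in cKO and 94.6% ± 0.343 in control (SD, n = 4 each). Pfkl was 2.08% ± 0.17 in cKO and 3.85% ± 0.366 in control, and Pfkp 2.58% ± 0.159 in cKO and 1.54% ± 0.252 in control. Pfkp thus ranked above Pfkl in every cKO library and below it in every control library.

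The enzymes on either side of phosphofructokinase fell by smaller amounts. Tpi1 (chr6:124810586-124814296), which interconverts the triose phosphates, had 421.5, 424.4, 412.7 and 447.0 CPM in cKO, against 555.2, 573.2, 561.3 and 692.1 CPM in control. No library of one group reached the other, and Tpi1 fell 1.40-fold (log2 fold change -0.48 ± 0.09 SE, edgeR adjusted p = 0.00258), or 1.32-fold without control replicate 4. Aldoa (chr7:126795234-126800751), the muscle aldolase, had 1159, 1177, 1169 and 1166 CPM in cKO, against 1516, 1216, 1508 and 1662 CPM in control. Control replicate 2 lay just above the cKO libraries, and the fall was 1.26-fold (log2 fold change -0.34 ± 0.10 SE, edgeR adjusted p = 0.0305). Gpi1 (chr7:34201330-34230336), which turns glucose 6-phosphate into fructose 6-phosphate, had 393.6, 408.0, 381.2 and 365.6 CPM in cKO, against 467.1, 437.9, 429.4 and 516.7 CPM in control. Again the groups did not overlap, and the difference was 1.20-fold (log2 fold change -0.26 ± 0.08 SE, edgeR adjusted p = 0.045). The calls of Aldoa and Gpi1 were close to the threshold. Without control replicate 4 the log2 fold change was -0.28 for Aldoa (edgeR adjusted p = 0.0619) and -0.20 for Gpi1 (edgeR adjusted p = 0.0906). Aldoa was no longer called when any cKO replicate or control replicate 1, 3 or 4 was left out (edgeR adjusted p = 0.0619 to 0.0925), and Gpi1 kept its call without control replicate 3 (edgeR adjusted p = 0.0406) but lost it without any other single replicate (up to 0.122). Over these fits the log2 fold change was -0.43 to -0.28 for Aldoa and -0.29 to -0.20 for Gpi1, so the size stayed near that of the full data.

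The bifunctional PFKFB enzymes make and break fructose 2,6-bisphosphate, the activator of phosphofructokinase. Pfkfb1 (chrX:150588229-150643878), known as the liver and muscle form, had 4.31, 4.84, 4.19 and 4.04 CPM in cKO, against 24.6, 10.8, 35.3 and 10.5 CPM in control. The controls varied widely among themselves, while the cKO libraries were nearly equal and all below the lowest control. Pfkfb1 fell 4.68-fold (log2 fold change -2.23 ± 0.35 SE, edgeR adjusted p = 0.00116), the largest change of the 33 genes, and by 2.45 on the log2 scale without control replicate 4. Its exons share 123 bases with Apex2 on the other strand, which had 4.87 ± 0.246 CPM in cKO and 9.49 ± 2.19 CPM in control (SD, n = 4 each) and also fell (log2 fold change -0.97 ± 0.17 SE, edgeR adjusted p = 0.00224). The sources used here do not say whether counting used strand, so reads in the shared bases cannot be assigned with certainty. Pfkfb2, the heart form, averaged 58.5 ± 6.42 CPM in cKO and 61.2 ± 9.6 CPM in control (SD, n = 4 each), with overlapping groups and a log2 fold change of -0.07 ± 0.12 (SE, edgeR adjusted p = 0.755).

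In the lower steps of glycolysis 1 of 7 genes fell (14.3%) and none rose, beside 9.64% called lower among all tested genes and 22.4% among those of at least 100 CPM. Eno3 (chr11:70657202-70662513), the muscle enolase, had 903.9, 805.2, 744.6 and 951.6 CPM in cKO, against 1287, 1240, 1239 and 1525 CPM in control. Every cKO library was below every control. Eno3 fell 1.55-fold (log2 fold change -0.64 ± 0.10 SE, edgeR adjusted p = 0.00136), or 1.48-fold without control replicate 4. The widely expressed enolase Eno1 had a log2 fold change of -0.20 ± 0.08 (SE, edgeR adjusted p = 0.103), with 75.0 to 83.7 CPM in cKO and 84.4 to 101.7 CPM in control. The remaining genes of these steps were not called, and all had log2 fold changes below 0. They were -0.08 for Gapdh, -0.29 for the phosphoglycerate kinase Pgk1, -0.15 and -0.28 for the phosphoglycerate mutases Pgam1 and Pgam2, and -0.22 for the pyruvate kinase Pkm.

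Some of these enzymes have many near-identical copies in the genome, which limits their counts. Transcripts of 78 other genes, 75 of them annotated as pseudogenes, matched Gapdh at 95% identity or more. Over all libraries their rows held 39192 counts, against 47676 for Gapdh itself. Gapdh and these rows summed to 466 ± 22.2 CPM in cKO and 501 ± 82.9 CPM in control (SD, n = 4 each). Gapdh alone had 246.0, 280.5, 245.5 and 258.4 CPM in cKO, against 275.6, 231.6, 251.9 and 331.4 CPM in control, with overlapping groups. The rows of copies came to 3.7% of the counts of Pgk1 and to at most 1.16% for each of the other 7 genes with such copies (Gpi1, Tpi1, Pgam1, Eno1, Pkm, Ldha and Ldhb). Matched stretches covered 85.6% of the Eno1 transcript, 76.8% of Ldhb, 68.8% of Pgk1, 65.5% of Pkm and 55.0% of Ldha. They covered 50.2% of Gpi1, 43.1% of Pgam1, 19.3% of Tpi1 and 88.0% of Gapdh. The handling of multiply aligned reads is not given. Small counts in the copies therefore do not show how many reads, if any, these genes lost. Their levels, and ratios that include them, carry this limit.

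Lactate dehydrogenase and lactate carriers moved in different directions. Ldhb (chr6:142490249-142507957), the subunit that prevails in heart, had 733.6, 800.3, 667.8 and 751.3 CPM in cKO, against 1004, 960.4, 1168 and 1174 CPM in control. The groups were well apart, and Ldhb fell 1.46-fold (log2 fold change -0.54 ± 0.10 SE, edgeR adjusted p = 0.00209), or 1.42-fold without control replicate 4. Ldha, the subunit that prevails in skeletal muscle, had 508.6, 510.6, 480.5 and 530.3 CPM in cKO, against 566.7, 540.1, 554.6 and 683.5 CPM in control. These groups did not overlap either, but the gene was not called (log2 fold change -0.21 ± 0.09 SE, edgeR adjusted p = 0.13).

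Slc16a1 (chr3:104638668-104658462), which encodes the lactate and pyruvate carrier MCT1, rose. It had 590.5, 580.2, 562.9 and 598.8 CPM in cKO, against 392.3, 479.3, 454.4 and 460.4 CPM in control. All 4 cKO libraries were above the highest control. The rise was 1.31-fold (log2 fold change 0.39 ± 0.08 SE, edgeR adjusted p = 0.00586), and 1.32-fold without control replicate 4. Slc16a3, which encodes the lactate exporter MCT4 of glycolytic tissues, stayed between 2.24 and 3.64 CPM in cKO and between 1.73 and 3.48 CPM in control, and was not called (edgeR adjusted p = 0.393).

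Among glycogen genes, glycogen synthase fell and one targeting subunit rose. Gys1 (chr7:45434844-45456619), the muscle glycogen synthase that lengthens the chains, had 112.8, 118.2, 110.1 and 107.8 CPM in cKO, against 166.5, 136.9, 156.7 and 200.8 CPM in control. The controls spread more than the cKO libraries, without overlap. Gys1 fell 1.47-fold (log2 fold change -0.56 ± 0.11 SE, edgeR adjusted p = 0.00345), or 1.37-fold without control replicate 4. The other genes of synthesis were not called, with log2 fold changes of -0.05 for Ugp2, which makes UDP-glucose, -0.07 for the primer protein glycogenin (Gyg) and -0.27 for the branching enzyme Gbe1.

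Ppp1r3c (chr19:36731731-36736653) encodes a subunit that brings protein phosphatase 1 to glycogen, where the phosphatase activates glycogen synthase. It had 209.7, 171.6, 254.2 and 194.0 CPM in cKO, against 97.3, 101.4, 128.8 and 134.6 CPM in control. Even the lowest cKO library was above the highest control. Ppp1r3c rose 1.80-fold (log2 fold change 0.84 ± 0.14 SE, edgeR adjusted p = 0.00131), the largest rise of the 33 genes, and 1.90-fold without control replicate 4. The muscle targeting subunit Ppp1r3a had 301.8, 282.2, 321.1 and 236.5 CPM in cKO, against 264.9, 372.4, 432.7 and 397.9 CPM in control. Control replicate 1 lay among the cKO libraries, and Ppp1r3a was not called (log2 fold change -0.36 ± 0.14 SE, edgeR adjusted p = 0.101), although without that replicate the edgeR adjusted p was 0.0133.

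None of the 4 genes of glycogen breakdown was called. Pygm, the muscle glycogen phosphorylase, had 1126, 1232, 1095 and 1093 CPM in cKO, against 1404, 1219, 1353 and 1704 CPM in control. Control replicate 2 fell within the range of cKO, and the log2 fold change was -0.32 ± 0.11 (SE, edgeR adjusted p = 0.0522). Pygb, the brain-type phosphorylase that heart also expresses, averaged 1332 ± 50 CPM in cKO and 1379 ± 193 CPM in control (SD, n = 4 each), with a log2 fold change of -0.05 ± 0.10 (SE, edgeR adjusted p = 0.788). The phosphorylase kinase subunits Phka1 and Phkg1 had log2 fold changes of 0.02 and 0.09, with overlapping groups.

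**Figure D3:**
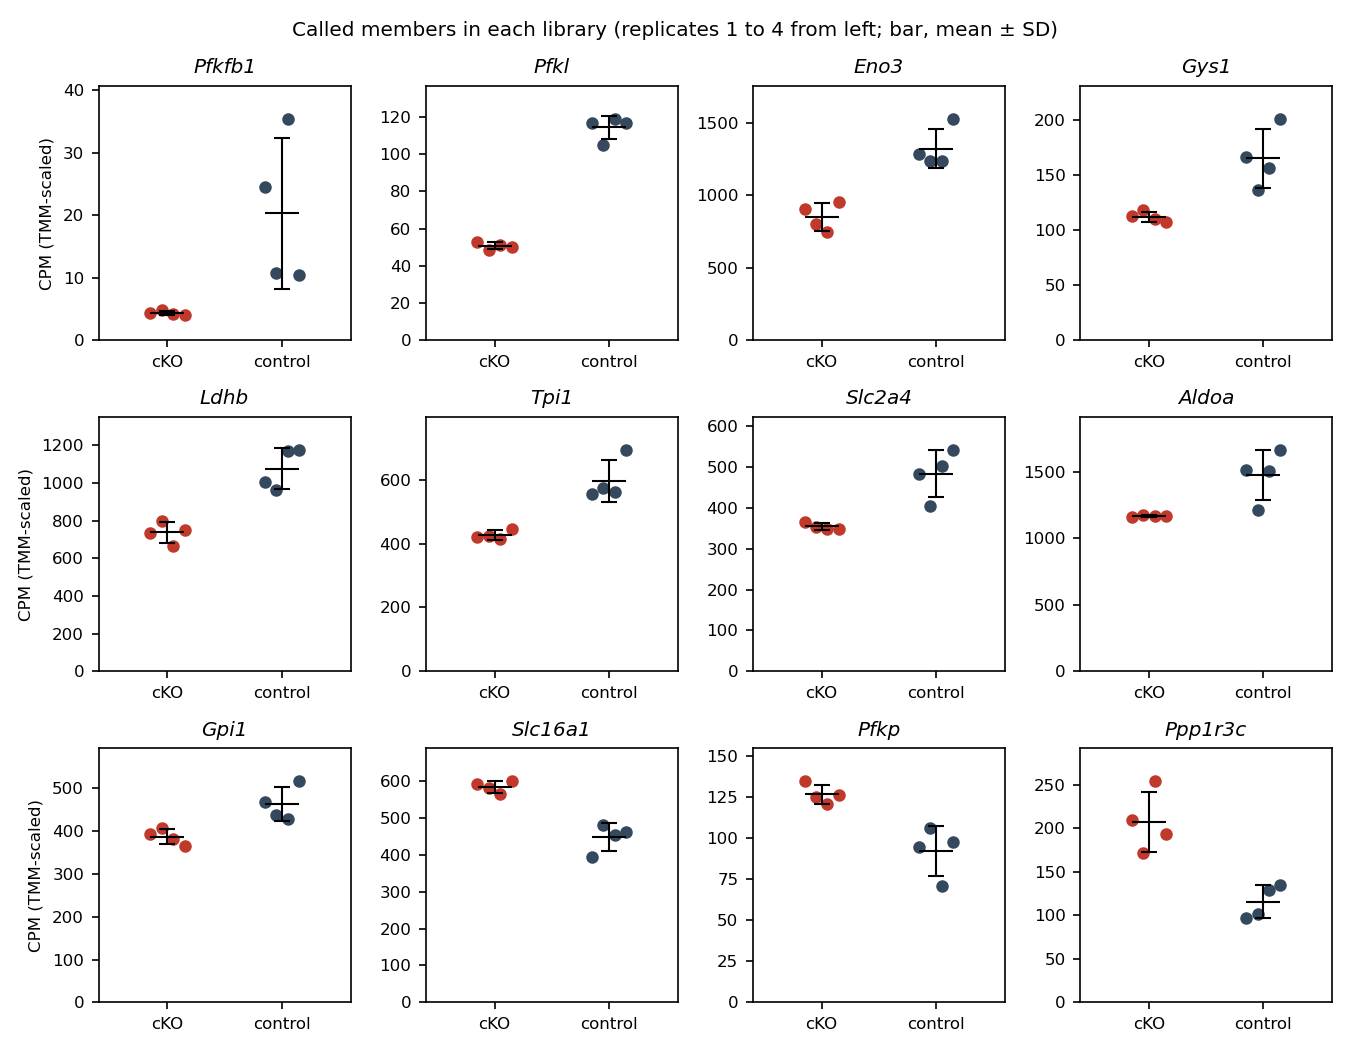
CPM of the 12 called genes in each library, one panel per gene with the vertical axis starting at 0, cKO in red left of control in dark grey, replicates 1 to 4 from left to right within each group; bars give the mean ± SD of 4 libraries. The groups do not overlap in any panel, and Aldoa shows the smallest gap for its level, between 1177 in cKO and 1216 in control.

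Ratios between isoenzymes within a library do not depend on how libraries are scaled to each other. Of 11 such pairs, 6 had groups that did not overlap. The smallest p the exact two-sided permutation test can give with 4 against 4 libraries is 0.0286, from 70 arrangements, and these 6 pairs reached it. Adjusted over the 11 pairs their p was 0.0524, so none of the pairs passed 0.05. The muscle or heart form made up a smaller share of its pair in cKO for enolase, lactate dehydrogenase and glycogen phosphorylase, and for Pfkm beside Pfkp. It made up a larger share in cKO for Pfkm beside Pfkl and for the heart form Pfkfb2 beside Pfkfb1. Pfkp was 2.64% of its pair with Pfkm in cKO and 1.6% in control, and Pfkl 2.13% in cKO and 3.91% in control. Pfkfb1 was 11.9% of its pair in cKO and 35.1% in control. Eno1 was 2.91% ± 0.25 of Eno1 and Eno3 together in cKO and 2.16% ± 0.0502 in control (SD, n = 4 each, length-scaled counts). Ldha was 24.6% ± 0.972 of Ldha and Ldhb in cKO and 20.6% ± 1.47 in control. Pygb was 44% ± 0.638 of Pygb and Pygm in cKO and 39.4% ± 0.953 in control, although neither gene was called by itself.

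The log2 ratio of Pfkp to Pfkm was 0.74 higher in cKO and that of Pfkl to Pfkm 0.90 lower, so both minor subunits changed against the muscle subunit, in opposite directions. The log2 ratio of Pfkfb1 to Pfkfb2 was 1.97 lower in cKO. The other 5 pairs overlapped between groups. Their log2 ratios differed by 0.87 for Aldoc to Aldoa, which rests on few Aldoc reads, by 0.13 for Pgam1 to Pgam2, by -0.07 for Hk1 to Hk2, by -0.04 for Slc16a3 to Slc16a1 and by 0.02 for Slc2a1 to Slc2a4 (exact p from 0.114 to 0.943).

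**Figure D4:**
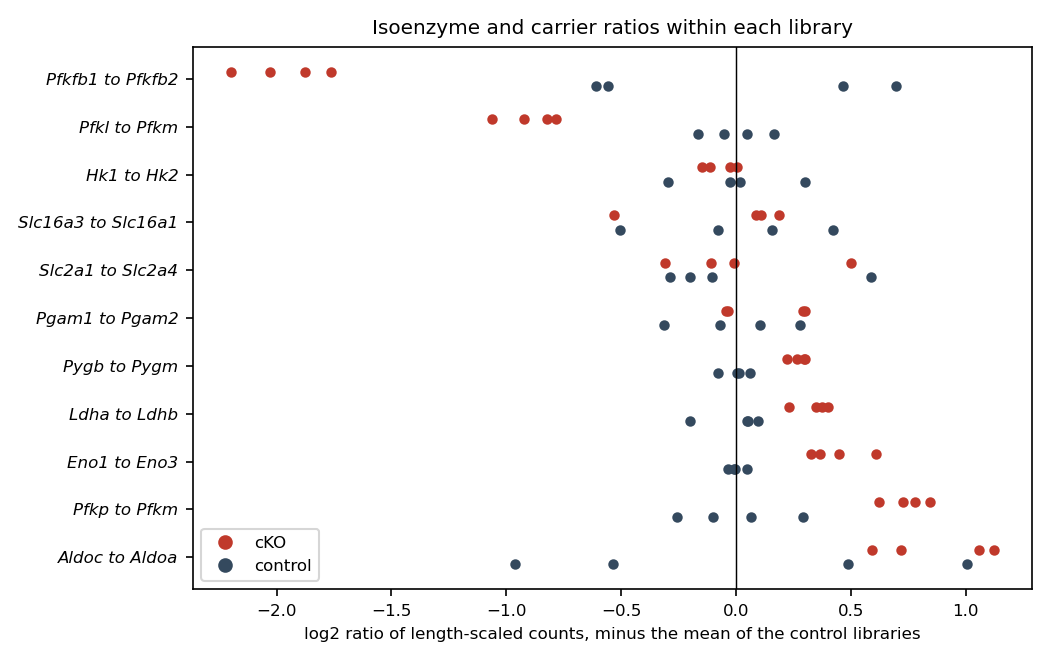
Log2 ratio of length-scaled counts of 11 isoenzyme or carrier pairs in each library, drawn as the difference from the mean of the control libraries, with cKO in red above control in dark grey. Red and dark points do not overlap for Pfkfb1 to Pfkfb2 and Pfkl to Pfkm on the left and for Pygb to Pygm, Ldha to Ldhb, Eno1 to Eno3 and Pfkp to Pfkm on the right.

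A longer list of 82 genes around the same pathways was examined beside the 34. Of the 76 tested, 17 fell (22.4%) and 6 rose (7.89%), with a median log2 fold change of -0.10, to be read beside the 9.64% called in each direction among all tested genes. Called genes with the smallest adjusted p are given here. Fbp2, the muscle fructose bisphosphatase that runs opposite to phosphofructokinase, had 7.33, 10.5, 6.93 and 8.60 CPM in cKO, against 29.3, 32.7, 31.8 and 22.1 CPM in control. It fell 3.48-fold (log2 fold change -1.80 ± 0.16 SE, edgeR adjusted p = 4.1e-05).

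Of the 11 tested uptake, export and trafficking genes of the longer list, 4 fell (36.4%) and 2 rose (18.2%), beside 9.64% of all tested genes in each direction. The glucose transporter Slc2a10, named after its values were seen, rose, with 3.64, 3.56, 3.60 and 5.37 CPM in cKO against 2.04, 1.86, 1.85 and 2.61 CPM in control (log2 fold change 0.95 ± 0.21 SE, edgeR adjusted p = 0.00866). The glucose transporter Slc2a12 averaged 3.89 CPM in cKO and 12.7 CPM in control (log2 fold change -1.71, edgeR adjusted p = 0.000601). Tbc1d4, which holds GLUT4 vesicles back until insulin signals, averaged 132.5 CPM in cKO and 203.9 CPM in control (-0.62, edgeR adjusted p = 0.000621). Bsg, basigin, the partner that carries MCT1 to the cell surface, averaged 609.1 CPM in cKO and 837.4 CPM in control (-0.46, edgeR adjusted p = 0.00241), while the gene of MCT1 itself rose. The monocarboxylate carrier Slc16a7 averaged 7.84 CPM in cKO and 17.9 CPM in control (-1.19, edgeR adjusted p = 0.0057).

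Subunits of the energy-sensing kinase AMPK changed in both directions. The catalytic subunit Prkaa2 fell by 0.92 on the log2 scale, with 219.5, 220.5, 226.6 and 166.0 CPM in cKO against 364.5, 390.8, 406.2 and 409.8 CPM in control (edgeR adjusted p = 0.000149). Of the scaffold subunits, Prkab1 averaged 27.0 CPM in cKO and 47.4 CPM in control (log2 fold change -0.81, edgeR adjusted p = 0.000236), and Prkab2 averaged 149.8 CPM in cKO and 95.4 CPM in control (0.65, edgeR adjusted p = 0.000428). Sord, sorbitol dehydrogenase of the polyol branch, averaged 103.8 CPM in cKO and 185.7 CPM in control (-0.84, edgeR adjusted p = 0.000416). Ppp1r3d, another glycogen-targeting subunit, fell while Ppp1r3c rose, with 18.4 CPM in cKO and 33.4 CPM in control (-0.86, edgeR adjusted p = 0.000758). Epas1, a hypoxia-inducible factor, averaged 444.7 CPM in cKO and 607.9 CPM in control (-0.45, edgeR adjusted p = 0.00569).

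Without control replicate 4, the 11 genes of the longer list given for their small adjusted p kept their calls and directions. The log2 fold changes were then -1.91 for Fbp2, -1.81 for Slc2a12, -1.35 for Slc16a7, -0.67 for Tbc1d4 and -0.42 for Bsg. They were -0.90 for Prkaa2, -0.86 for Prkab1, 0.69 for Prkab2, -0.84 for Sord, -0.79 for Ppp1r3d and -0.42 for Epas1 (edgeR adjusted p from 4.95e-05 to 0.0149).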

How the data were processed

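Polyadenylated RNA of heart ventricles was sequenced in stranded libraries, per the labels' protocols. The authors deposited whole-number counts per gene symbol. Builds GRCm38 and mm10 and the tools HISAT2 2.0.4 and featureCounts 1.6.0 stand in the submitters' processing notes, with no roles. Strand setting, annotation release and handling of multiply aligned reads: not given in the sources used here.

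The members and gene lists were chosen with earlier results of these data known. The 24 rows with a number for a symbol, 0.115% to 0.132% of counts, were left out. Libraries held 20190334 to 24540433 counts. The main test was edgeR 4.0.16 (R 4.3.3) with TMM, filterByExpr, the quasi-likelihood test and Benjamini-Hochberg adjustment over 16051 genes; a gene was called at an adjusted p under 0.05. CPM values are TMM-scaled, tests two-sided, and SE is the absolute log2 fold change over the square root of F. The labels do not say whether a library is 1 animal, so p-values measure the spread between libraries, which may be technical. Alternatives included DESeq2 1.42.0, limma-voom 3.58.1, total counts, other filters, sex as a covariate, males only and each library left out. Named genes were all 34 members, Rbpms, up to 12 called genes of the longer list by adjusted p, and markers where a result turns on them. Some genes of the longer list are not reported here. Exon lengths and overlaps come from GENCODE M21 (GRCm38), and copies from blastn 2.17.0 (95% identity over at least 100 bases and 15% of the transcript). Ratios used length-scaled counts plus 0.5. The script was tested on simulated counts. No pair of libraries agreed within sampling noise (chi-square per degree of freedom 7.79 to 34.8).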

Additional observations from a re-analysis of the deposited data

Results flagged for a closer look

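In 5 of 66 groups of 4 libraries, 1 library lay far from the rest of its group by Dixon's test, where chance flags about 1 group in 20. Control replicate 4 was the highest control for Hk1 (375.9 CPM, next 290.9), Tpi1 (692.1 CPM, next 573.2) and Eno3 (1525 CPM, next 1287). That library also held the skeletal muscle transcripts described above, and the relation between them was not tested. Control replicate 2 was the lowest control for Pfkl (104.8 CPM, next 116.7), still far above every cKO library. The female cKO library, replicate 3, was the highest for Ugp2 (409.2 CPM, next 305.2), and the female control was the highest control for Ugp2 as well, at 401.7 CPM.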

How the results depend on the processing

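Of the 12 called members, 10 kept their call and direction under all 17 alternatives. Gpi1 lost it under 11, among them total counts (edgeR adjusted p = 0.102) and males only, and Aldoa under 8, among them males only (0.115). The cause was not tested. Members that gained a call under at least 1 alternative were Slc2a1 (sex as covariate), Hk1, Pfkm, Pgk1, Pygm and Ppp1r3a, and the other 15 uncalled members did not gain one. Members called higher numbered 3 under every alternative at the 0.05 threshold, and members called lower 7 to 13, the most with DESeq2. At an adjusted p under 0.01, 2 members were higher and 7 lower, and over all genes 808 were called higher and 817 lower. With total counts only, 1021 genes were called lower. Without single libraries the members called lower numbered 7 to 9. No paired analysis was possible because no label pairs libraries across genotypes. Depth limits the low genes such as Aldoc and Slc16a3, as 1 CPM is 20 to 25 reads.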

Other observations

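The called genes of the longer list named here were chosen for mention after their values were seen. The called genes of regulatory AMPK subunits went opposite ways, with Prkag1 at 22.6 to 24.8 CPM in cKO and 27.5 to 34.9 CPM in control (log2 fold change -0.35, edgeR adjusted p = 0.02) and Prkag3 at 3.15 to 5.16 CPM in cKO and 1.99 to 3.08 CPM in control (0.68, edgeR adjusted p = 0.0482). The regulatory subunit gene Prkag2 (-0.37, edgeR adjusted p = 0.12) and the catalytic subunit gene Prkaa1 (-0.09, edgeR adjusted p = 0.452) were not called. In pyruvate and NADH disposal 3 of 5 genes fell (60%), beside 9.64% called lower among all tested genes. Mpc2, a subunit of the mitochondrial pyruvate carrier, had 121.0 to 156.8 CPM in cKO and 163.0 to 205.2 CPM in control (-0.45, edgeR adjusted p = 0.00798). Gpd2, the mitochondrial glycerol phosphate dehydrogenase, had a log2 fold change of -0.50 (edgeR adjusted p = 0.00668), and Ldhd, which oxidises D-lactate, one of -0.48 (edgeR adjusted p = 0.0108).

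Beside Gys1, Pgm2, a phosphoglucomutase, fell, with a log2 fold change of -0.44 (edgeR adjusted p = 0.00748). Emb, embigin, which like basigin accompanies monocarboxylate carriers, had 3.17 to 4.26 CPM in cKO and 1.36 to 2.25 CPM in control and rose (0.92, edgeR adjusted p = 0.0104).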
